A study of Mus musculus with 4 samples.

Results

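The nuclear genes of respiratory complexes II to V and of cytochrome c were followed in mouse embryonic stem cells (ESCs) with and without *Bmal1*. Members were taken by symbol, as the *Sdh*, *Uqcr*, *Uqcc*, *Cox* and *Atp5* series together with *Cyc1*, *Cycs*, *Bcs1l* and *Surf1*, and pseudogenes were left out. This gave 66 members among the 19645 features of each file. Of these, 8 belong to complex II, 13 to complex III, 1 is cytochrome c, 27 belong to complex IV and 17 to complex V. *Atp5sl* is counted in complex V by its symbol, although its protein acts in complex I assembly. *Bmal1* (official symbol *Arntl*) encodes a transcription factor of the circadian clock that binds E-boxes together with CLOCK. The 4 RNA-seq libraries were 2 of wild-type (WT) ESCs and 2 of *Bmal1* knockout (KO) ESCs, both undifferentiated and grown in serum with LIF on gelatin. The KO is a single CRISPR-Cas9 line with a frameshift deletion in a coding exon of *Bmal1*. The comparison asks whether transcripts of the respiratory chain differ in ESCs that lack the clock factor. The study calls the libraries biological duplicates, but no label says whether they came from separate cultures. Both KO libraries come from the single selected KO clone. Genotype therefore cannot be told apart from other traits of that clone or from culture. The p-values measure only the spread between these samples.

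Complexes II to V carry out the later steps of oxidative phosphorylation in the inner mitochondrial membrane. Complex II oxidises succinate and reduces ubiquinone, complex III passes electrons from ubiquinol to cytochrome c, complex IV passes them from cytochrome c to oxygen, and complex V uses the proton gradient to make ATP. Complexes III, IV and V also contain subunits made from mitochondrial DNA, which were not analysed here, and complex IV has tissue forms of several subunits that are known from lung, muscle or testis. Cultured ESCs in serum with LIF are known to use both glycolysis and respiration.

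Values are FPKM, fragment numbers scaled to the length of the transcript and the size of the library, so levels can be set side by side between genes. The read number behind each value is unknown. Changes are KO minus WT on the log2(FPKM + 0.1) scale, with adjusted p from limma over the 12990 features whose mean reached 0.5 FPKM. With 2 libraries per group an exact permutation test of a single gene cannot give a two-sided p below 0.333. *Arntl* stood at 6.05 and 6.29 FPKM in WT and 5.95 and 5.92 in KO (change -0.06, SE 0.10, limma adjusted p = 0.750). The RNA level therefore does not check the KO label, as a frameshift need not lower the transcript. The study reported loss of BMAL1 protein in the KO line by Western blot. The 8 markers of pluripotent cells summed to between 6309 and 6432 FPKM in WT and between 5887 and 6246 in KO. Most of this was *Dppa5a* and *Pou5f1*, whose groups overlapped. *Klf4* and *Tdgf1* fell (-0.46 and -0.36, limma adjusted p = 0.0178 and 0.0322), 2 of 8 against 12.5% of all tested features. *Nanog*, *Sox2* and *Zfp42* were also lower in both KO libraries, and the main *Esrrb* feature was higher in both, but none of these passed. Markers of fibroblast feeder cells (6 of 8 found) summed to 1.67 to 3.31 FPKM per library, those of trophoblast (3 of 4 found, nearly all of it *Krt8*) to 23.2 and 20.7 in WT and 17.2 and 17.0 in KO, and the 4 of primitive endoderm to 0.493 and 0.607 in WT and 1.28 and 1.09 in KO. The part of these markers in the results was not tested. Features without a gene symbol took 26.8% and 37.4% of the summed FPKM in WT against 19.0% and 18.1% in KO. In bulk RNA, fewer cells that express a gene and less RNA per cell cannot be told apart.

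As a group, the members stayed close to their WT level in FPKM. Their share of the summed FPKM of features with a symbol was somewhat higher in KO (3.13% and 3.11% in WT, 3.36% and 3.23% in KO). Of the 66, 65 passed the filter on low values, and *Cox6a2* did not. With an adjusted p under 0.05 as the sole criterion, 3 of the 65 were called (4.62%), against 12.5% of all tested features. *Cox7b2* was higher in KO (1 member, 1.54%, against 6.85% of all features), and *Cycs* and *Cox6b2* were lower (2 members, 3.08%, against 5.6%). No member was called with a change of more than 2-fold, against 2.72% of features called higher and 1.42% called lower at that size. In limma, 11 of the 65 (16.9%) had an unadjusted p under 0.05, against 29.6% of all features. The groups did not overlap for 31 members (47.7%, against 58.8% of all features). In these, KO was above WT for 16 members (24.6%, against 27%) and below it for 15 (23.1%, against 31.7%), and the groups overlapped for the other 34. The median change was 0.01 over the members and -0.02 over all tested features. The members also varied less, with an SD of changes of 0.21 against 0.53 over all features. They differ from these in level, with medians of 188 to 197 FPKM per library against 2.3 to 2.5 over every feature in the files. No set of matched level was compared, so the part of level in the smaller SD was not tested. For the 61 members with at least 10 FPKM on average, the changes ran from -0.52 to 0.44 with an SD of 0.17. The replicates lay close together too, with a median SD of 0.08 (log2) for the members and 0.12 for all features. The median 95% interval of a member reached 0.21 to either side of its change. Changes smaller than that could not be told from 0 for a typical member. The interval is not adjusted for the number of features tested, so a call needed a larger change. *Cox20*, at 0.44, was not called (limma adjusted p = 0.0530).

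**Figure D1:**
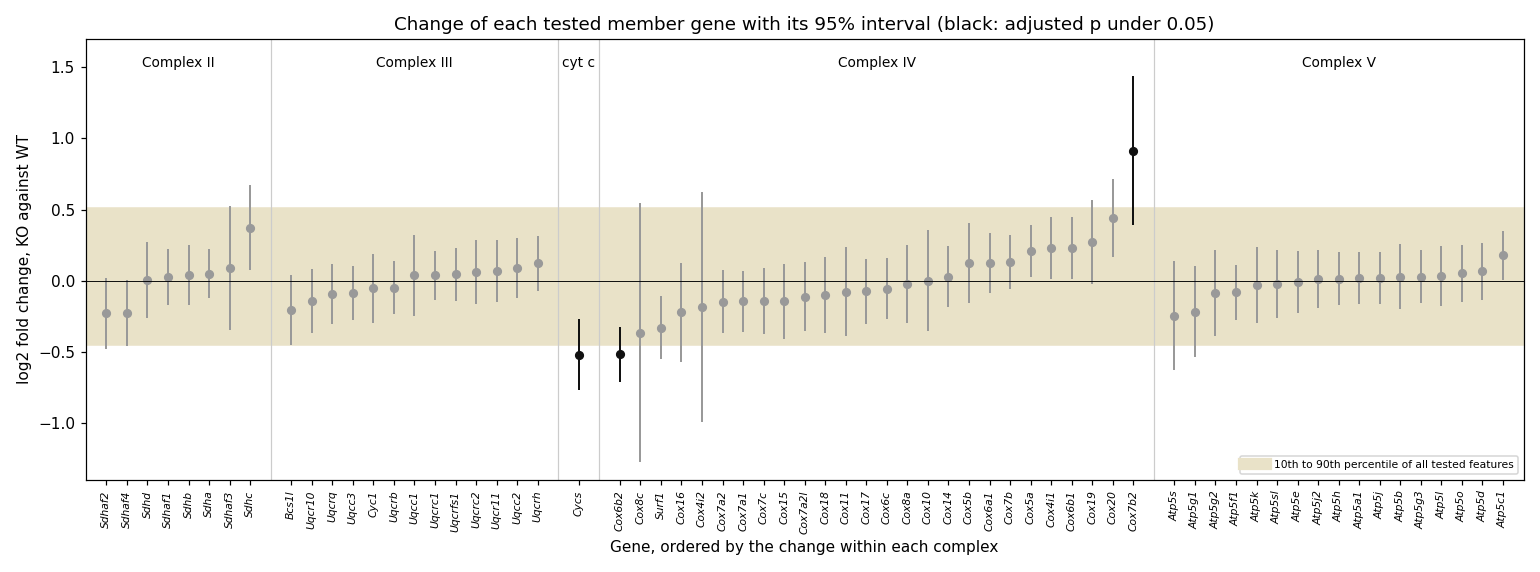
The log2 fold change (KO minus WT) of each of the 65 tested members is plotted by complex, with bars for the 95% interval and a band for the 10th to 90th percentile of all tested features (-0.45 to 0.51). Only *Cycs*, *Cox6b2* and *Cox7b2*, in black, passed an adjusted p of 0.05, and most of the other points lie within the band near 0.

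Levels differed widely between the members. The 4 subunits of complex II lay near the lower end of the structural subunits and close to one another, at 96.4 to 109 FPKM on average over the 4 libraries. Subunits of complexes III, IV and V reached higher levels, led by *Uqcrq* (1018 and 1110 in WT, 994 and 997 in KO), *Cox7c* (2312 and 2308 in WT, 2191 and 1993 in KO) and *Atp5k* (1527 and 1464 in WT, 1591 and 1350 in KO). These 3 are small membrane subunits with short transcripts, and FPKM of short transcripts depends most on how fragment length is modelled. The feature with *Atp5k*, subunit e of ATP synthase, is merged in the files with *Mfsd7a*. Assembly factors, which build the complexes but are not part of the finished enzyme, had a lower median, although *Cox17* and *Uqcc2*, at 295 and 214 FPKM on average, lay above every complex II subunit. The 18 of complexes II to IV had a median of 23.3 and 21.0 FPKM in WT and 22.9 and 20.5 in KO. The 39 subunits without assembly factors and tissue-restricted forms had a median of 494 and 508 FPKM in WT and 565 and 511 in KO. Within the order set by the WT means, neighbours overlapped between the WT libraries for 2 of 7 pairs in complex II, 1 of 12 in complex III, 6 of 26 in complex IV and 2 of 16 in complex V.

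**Figure D2:**
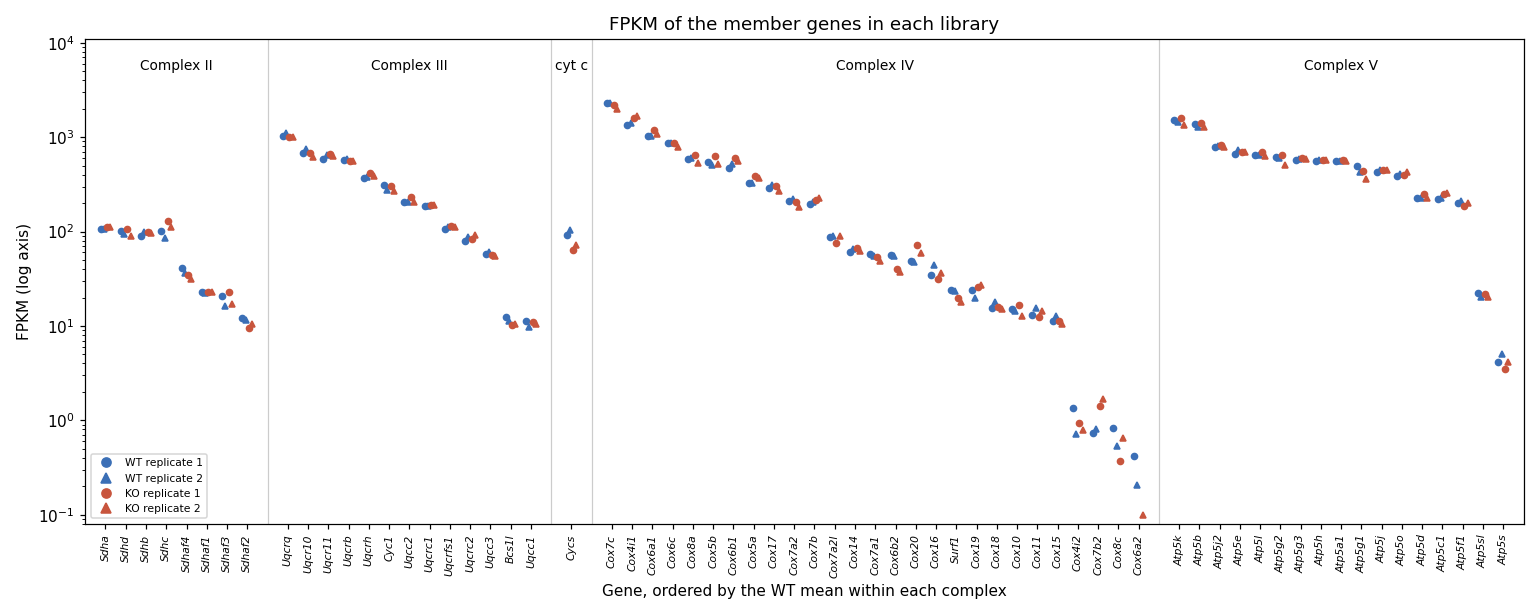
FPKM of each member on a log axis, by complex and in order of the WT mean, with circles for replicate 1 and triangles for replicate 2, WT in blue and KO in red (*Cox6a2* is listed at 0 in KO replicate 1 and has no point there). Most members lie between 10 and 2312 FPKM with the 4 points close together, and 4 tissue forms of complex IV lie below 2 FPKM.

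In complex II, none of the 8 members passed the test, against 12.5% of all tested features. *Sdhc*, a membrane anchor at the ubiquinone and haem site, was measured at 101 and 85.1 FPKM in WT and at 130 and 111 in KO. The KO values were both above the WT values, with the largest positive change of the complex (0.37, SE 0.12, limma adjusted p = 0.0991). *Sdha*, the flavoprotein that oxidises succinate, was at 108 and 107 FPKM in WT and 111 in both KO libraries (0.05, adjusted p = 0.667). The iron-sulfur subunit *Sdhb* was at 90.1 and 100 FPKM in WT and 99.7 and 95.7 in KO, and the other anchor, *Sdhd*, was at 102 and 93.1 in WT and 106 and 89.7 in KO. For both, the groups overlapped, and the difference lay within the spread between replicates. The assembly factors were lower in level and differed in direction. *Sdhaf4*, which holds flavinated SDHA, was at 40.7 and 36.8 FPKM in WT and 34.4 and 31.7 in KO (-0.23, limma adjusted p = 0.162), and *Sdhaf2*, which attaches FAD to SDHA, was at 12.1 and 11.4 in WT and 9.57 and 10.5 in KO (-0.23, adjusted p = 0.189). Neither set of libraries overlapped, but neither change passed. *Sdhaf1* and *Sdhaf3*, factors for the iron-sulfur subunit, changed by 0.02 and 0.09. The median over the complex was 0.03.

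In complex III, none of the 13 members passed, against 12.5% of all tested features, and all changes lay between -0.21 and 0.12. The electron-carrying subunits stayed near their WT level. *Uqcrfs1*, the Rieske iron-sulfur protein, was at 106 and 113 FPKM in WT and at 114 and 112 in KO (0.05, 95% interval -0.13 to 0.22). *Cyc1*, cytochrome c1, was at 312 and 278 FPKM in WT and at 301 and 269 in KO (-0.05, 95% interval -0.29 to 0.18). The groups overlapped for both genes. *Uqcrc1* and *Uqcrc2*, the core proteins, changed by 0.04 and 0.06. The largest positive change was that of the hinge protein gene *Uqcrh*, next to cytochrome c1 in the enzyme, at 369 and 376 FPKM in WT and 421 and 390 in KO (0.12, limma adjusted p = 0.348). The largest negative change was that of *Bcs1l*, the ATPase that inserts the Rieske protein, at 12.5 and 11.4 FPKM in WT and 10.1 and 10.5 in KO (-0.21, limma adjusted p = 0.215). Neither change passed the test. KO lay above WT for 3 of the 13 members and below it for 5 (27% and 31.7% of all features), and the median change was 0.04.

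*Cycs*, the mobile carrier that brings electrons from complex III to complex IV and that also acts in apoptosis when released from mitochondria, had, together with *Cox6b2*, the largest change among the members above 10 FPKM. It was measured at 92.6 and 103 FPKM in WT and at 63.9 and 72.7 in KO. Both KO libraries lay below both WT libraries, with means of 98.0 ± 7.66 (SD, n = 2) and 68.3 ± 6.23 FPKM (SD, n = 2). The change was -0.52 (SE 0.10, 95% interval -0.76 to -0.28, limma adjusted p = 0.0269). Over 15 alternatives the adjusted p ranged from 0.00143 to 0.0781. Those that leave out a library keep 1 in its group, which is then assumed to vary like the libraries of the other genotype, so they check the size of a change more than its p. It missed the threshold without a filter on low values (0.0567), without the variance trend (0.0781) and without KO replicate 1 (0.0547). The annotated gene lies on chromosome 6 at 50562563 to 50566538, minus strand (ENSMUSG00000063694.5, GRCm38). Mouse *Cycs* has processed pseudogenes of near-identical sequence, so its level is uncertain. Ratios to neighbours in the pathway reuse the same *Cycs* values, so they restate the change and are no separate support for it. The ratio of *Cycs* to *Cyc1* was 0.296 and 0.371 in WT and 0.213 and 0.271 in KO, and that of *Cox4i1* to *Cycs* was 14.4 and 13.8 in WT and 24.7 and 22.8 in KO. For both ratios the KO libraries lay outside the WT range. *Cox4i1* was itself higher in both KO libraries (0.23), which widens its ratio. The ratio of *Atp5b* to *Sdha*, both of small change (0.03 and 0.05), stood at 12.7 and 12.1 in WT and 12.8 and 11.6 in KO.

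The testis form of cytochrome c, *Cyct*, was among the pathway genes outside the symbol rule and fell further. It stood at 8.72 and 8.54 FPKM in WT and at 3.96 and 3.29 in KO. The libraries were far apart relative to their spread, with means of 8.63 ± 0.127 (SD, n = 2) and 3.63 ± 0.479 FPKM (SD, n = 2). The change was -1.23 (SE 0.13, limma adjusted p = 0.00604), past the 2-fold threshold as well. It stayed past both thresholds under every alternative that keeps all 4 libraries, and its change ran from -1.37 to -1.10 with a library left out. The annotated gene lies on chromosome 2 at 76353942 to 76360450, minus strand (ENSMUSG00000056436.4). In WT, *Cycs* was the more abundant of the 2 cytochrome c transcripts, and it stayed so in KO.

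**Figure D3:**
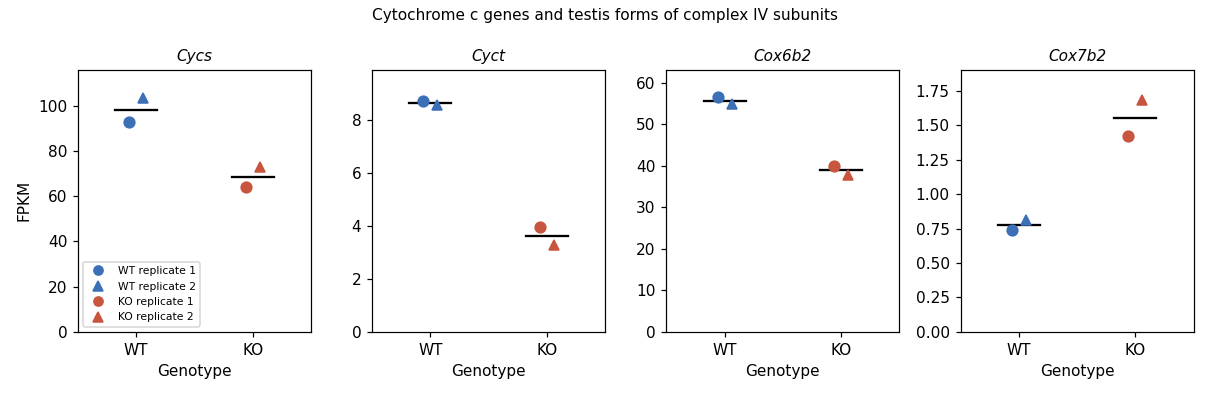
FPKM of *Cycs*, *Cyct*, *Cox6b2* and *Cox7b2* in each library, on axes that start at 0 and differ between panels, with circles for replicate 1, triangles for replicate 2 and a line at each mean. The KO points lie below the WT points for *Cycs*, *Cyct* and *Cox6b2* and above them for *Cox7b2*, with no overlap in any panel.

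Complex IV, which has the most members, held the widest range of changes, from -0.52 to 0.91. The upper end is *Cox7b2*, at 0.737 to 1.68 FPKM. Of its 26 tested members, 1 was called higher and 1 lower, against 12.5% of all tested features in either direction. Both are testis forms of subunits. *Cox6b2*, the testis form of subunit 6b, was measured at 56.4 and 54.8 FPKM in WT and at 40.0 and 37.7 in KO. Each KO library was below each WT library, with means of 55.6 ± 1.17 (SD, n = 2) and 38.8 ± 1.65 FPKM (SD, n = 2). The change was -0.52 (SE 0.08, 95% interval -0.70 to -0.33, limma adjusted p = 0.0136), and it passed under all 15 alternatives (adjusted p from 0.00270 to 0.0469). The feature is merged with *Fam71e2* and spans chromosome 7 from 4751792 to 4771270, whereas the annotated *Cox6b2* gene (ENSMUSG00000051811.14, minus strand) ends at 4753094, so the value may hold reads of both genes. Its broadly expressed partner *Cox6b1* was at 472 and 517 FPKM in WT and at 600 and 560 in KO, with both KO libraries higher (0.23, SE 0.09, limma adjusted p = 0.142). *Cox6b2* thus made up 10.7% and 9.58% of the summed FPKM of subunit 6b in WT and 6.25% and 6.31% in KO. Shares here are of summed FPKM, and the KO libraries lay below both WT libraries.

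*Cox7b2*, the testis form of subunit 7b, went the other way at a level 2 orders of magnitude below its partner. It was at 0.737 and 0.813 FPKM in WT and at 1.42 and 1.68 in KO. Each KO library was above each WT library, with means of 0.775 ± 0.0536 (SD, n = 2) and 1.55 ± 0.187 FPKM (SD, n = 2). The change was 0.91 (SE 0.21, 95% interval 0.40 to 1.43, limma adjusted p = 0.0449). The adjusted p ranged from 0.0201 to 0.175 over the alternatives, and the call was lost without a filter (0.0877), with a minimum mean of 1 FPKM (0.0502), after quantile normalization (0.0574), and without WT replicate 1 (0.0573), KO replicate 1 (0.0742) or KO replicate 2 (0.175). With a pseudocount of 1 the change was 0.52. The annotated gene lies on chromosome 5 at 71442824 to 71548205, minus strand (ENSMUSG00000049387.10). The partner *Cox7b* was at 195 and 206 FPKM in WT and 214 and 226 in KO (0.13, limma adjusted p = 0.307), so *Cox7b2* made up 0.376% and 0.393% of subunit 7b in WT and 0.660% and 0.740% in KO.

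The other tissue forms did not pass the test. *Cox7a1*, the heart and muscle form of subunit 7a, was well expressed, at 58.3 and 54.8 FPKM in WT and 53.6 and 48.7 in KO (-0.15, limma adjusted p = 0.312). Its share of subunit 7a was 21.7% and 19.9% in WT and 20.6% and 21.0% in KO, and these overlapped, as the partner *Cox7a2* was also lower in KO (210 and 221 against 206 and 183). The 6 markers of skeletal or heart muscle, in 5 features because *Myh6* and *Myh7* are merged, all lay under 1 FPKM on average and summed to 1.47 and 1.17 FPKM in WT and 2.98 and 2.3 in KO. *Cox8c*, a testis form of subunit 8, was at 0.824 and 0.538 FPKM in WT and 0.371 and 0.655 in KO. *Cox4i2*, the lung form of subunit 4, was at 1.35 and 0.725 in WT and 0.934 and 0.793 in KO. Both overlapped between the groups and made up less than 0.2% of their subunit in each library. *Cox6a2*, the heart and muscle form of subunit 6a, was below the filter, at 0.415 and 0.205 FPKM in WT, listed at 0 in KO replicate 1 and at 0.10 in KO replicate 2. The testis forms therefore had no common direction, since *Cox6b2* and *Cyct* fell, *Cox7b2* rose and *Cox8c* overlapped. The germ cell markers *Ddx4* and *Sycp3*, the 2 of 4 that were found, summed to 9.37 and 11.6 FPKM in WT and 13.7 and 14.5 in KO. They were higher in both KO libraries, neither passed the test, and their part in these results was not tested.

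**Figure D4:**
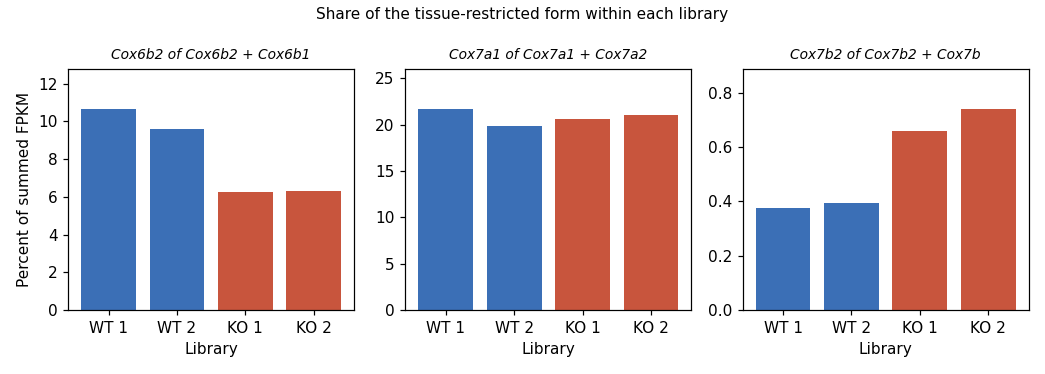
Bars give the percent of the summed FPKM of a subunit that comes from its tissue-restricted form, one bar per library, on axes that start at 0 and differ between panels. The share of *Cox6b2* is lower in both KO libraries (6.25% and 6.31% against 10.7% and 9.58%), that of *Cox7b2* is higher, and that of *Cox7a1* overlaps.

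The broad forms and the other subunits of complex IV carried most of the transcript. None of the 11 passed the test, against 12.5% of all tested features. Both KO libraries were above WT for 5 and below for 2 (27% and 31.7% of all features), and the median change was 0.12. *Cox4i1*, the broad form of subunit 4, was at 1333 and 1428 FPKM in WT and 1581 and 1656 in KO (0.23, limma adjusted p = 0.144). *Cox5a*, a matrix subunit, was at 330 and 326 in WT and 387 and 373 in KO (0.21, adjusted p = 0.115). *Cox6a1* was at 1033 and 1041 in WT and 1178 and 1087 in KO (0.13, adjusted p = 0.366). For these 3 the KO libraries were higher than both WT libraries by an amount that did not pass over all features. *Cox8a*, the broad form of subunit 8, was at 586 and 601 FPKM in WT and 642 and 531 in KO and overlapped. *Cox7c*, the most abundant member of all, was lower in both KO libraries (-0.14, limma adjusted p = 0.347).

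The 10 assembly factors of complex IV spread to either side of 0, from -0.33 to 0.44. None of them was called, against 12.5% of all tested features. That count depends on the processing for the 2 nearest to the threshold, which are named here after their values were seen. *Cox20*, a chaperone of the mitochondrially encoded subunit 2, was at 48.4 and 47.4 FPKM in WT and 71.8 and 59.0 in KO (0.44, SE 0.11, limma adjusted p = 0.0530). It passed under 9 of the 15 alternatives, as many as the called *Cox7b2*, with adjusted p from 0.0112 to 0.159. Its feature has the same coordinates as that of *Hnrnpu*, the annotated genes overlap on opposite strands, and whether counting used strand is not given in the sources used here, so reads of the 2 genes cannot be told apart here. *Hnrnpu* was at 372 and 415 FPKM in WT and 360 and 395 in KO (-0.06). *Surf1*, a factor for the haem A site of the mitochondrially encoded subunit 1, was at 23.8 and 23.6 in WT and 19.7 and 18 in KO (-0.33, SE 0.09, limma adjusted p = 0.0629). It passed under 2 of the 15 alternatives, with adjusted p from 0.0140 to 0.239. It lies in a dense gene cluster, and its feature shares its coordinates with 3 others. *Cox10* and *Cox15*, the enzymes that make haem A, changed by -0.00 and -0.14. *Cox17*, *Cox11* and *Cox19*, which handle copper, changed by -0.07, -0.08 and 0.27, and only *Cox19* kept its libraries apart. Over the 18 assembly factors of complexes II to IV, both KO libraries were above WT for 4 and below for 6, near the 27% and 31.7% of all features, and the median was -0.08.

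In complex V, none of the 17 members passed, against 12.5% of all tested features. The groups lay apart for 3 and overlapped for 14 (58.8% of all features lay apart), and the changes ran from -0.25 to 0.18. *Atp5b*, the catalytic beta subunit, was at 1365 and 1294 FPKM in WT and 1418 and 1293 in KO (0.03, 95% interval -0.19 to 0.25). *Atp5a1*, the alpha subunit, was at 559 and 553 in WT and 568 and 556 in KO (0.02, 95% interval -0.16 to 0.19). Both catalytic subunits overlapped between the groups. Of the central stalk, *Atp5c1*, the gamma subunit that turns within the head, was at 223 and 224 FPKM in WT and 251 and 255 in KO. Its replicates lay close and both KO libraries were higher, with the largest positive change of the complex (0.18, SE 0.07, limma adjusted p = 0.151). The epsilon subunit gene *Atp5e* was at 662 and 738 FPKM in WT and 700 and 689 in KO. *Atp5d*, the delta subunit, was at 226 and 229 in WT and 250 and 227 in KO, but its feature shares its coordinates with 42 others. Both overlapped. The largest negative change was that of *Atp5s*, coupling factor B, the member of lowest level in the complex (4.18 and 5.02 FPKM in WT, 3.53 and 4.20 in KO, -0.25, limma adjusted p = 0.340).

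The c subunit, which forms the proton-driven ring, is made from 3 genes whose mature proteins are the same. *Atp5g1* was at 494 and 426 FPKM in WT and 437 and 356 in KO (-0.22, limma adjusted p = 0.314). *Atp5g2* was at 617 and 598 in WT and 642 and 511 in KO, and *Atp5g3* at 575 and 591 in WT and 597 and 593 in KO. None passed. *Atp5g1* gave 29.3% and 26.4% of the summed FPKM of the 3 genes in WT and 26.1% and 24.4% in KO, *Atp5g2* 36.6% and 37.1% against 38.3% and 35.0%, and *Atp5g3* 34.1% and 36.6% against 35.6% and 40.6%. The shares lay apart for *Atp5g1* by less than the spread between replicates, and they overlapped for the other two. The 4 peripheral stalk genes (*Atp5f1*, *Atp5h*, *Atp5j*, *Atp5o*) ran from -0.08 to 0.05 and the 3 membrane genes (*Atp5k*, *Atp5j2*, *Atp5l*) from -0.03 to 0.03.

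Other genes of the pathway were taken from lists by role. Of 31 further subunits and assembly factors of complexes II to V, 29 were tested and 1 passed, against 12.5% of all features. *Coa4*, a twin-cysteine assembly factor of complex IV (annotated gene on chromosome 7 at 100537071 to 100540369, plus strand, ENSMUSG00000044881.7), was at 17.0 and 17.2 FPKM in WT and 12.1 and 10.8 in KO. Its WT libraries agree closely and both KO libraries were lower (-0.58, SE 0.10, limma adjusted p = 0.0187), and it passed under all 15 alternatives (adjusted p up to 0.0470). In this list both KO libraries were above WT for 7 of the 29 genes and below for 11 (27% and 31.7% of all features), with a median of -0.02. Of 15 genes of coenzyme Q synthesis, which makes the ubiquinone used by complexes II and III, 13 were tested. None passed, against 12.5% of all features (median -0.01), and both KO libraries were above WT for 4 and below for 5. Of 19 features for transcriptional regulators of respiratory genes, 18 were tested. None passed, against 12.5% of all features (median -0.05), and both KO libraries were above WT for 4 and below for 3. The shares of all features for these counts are the same 27% and 31.7%. *Nrf1* was at 21.9 and 22.6 FPKM in WT and 22.5 and 23.1 in KO. *Tfam*, which packages and transcribes mitochondrial DNA, was at 23.7 and 26.2 in WT and 21.3 and 23.9 in KO. Both overlapped between the groups.

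Promoters are shown for the 3 members that passed the test, as the 250 bases before the annotated start, from RefSeq (GRCm38.p6), all on the minus strand and written 5′ to 3′. Capitals mark a match to one of 5 motifs searched on both strands. The windows are chr6:50566570-50566819 for *Cycs*, chr7:4753095-4753344 for *Cox6b2* and chr5:71548206-71548455 for *Cox7b2*.
Cycs: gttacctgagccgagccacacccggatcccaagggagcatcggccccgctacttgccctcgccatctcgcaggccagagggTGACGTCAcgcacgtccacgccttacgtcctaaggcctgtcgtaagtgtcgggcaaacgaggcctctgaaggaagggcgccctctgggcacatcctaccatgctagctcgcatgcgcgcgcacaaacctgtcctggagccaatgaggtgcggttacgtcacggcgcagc
Cox6b2: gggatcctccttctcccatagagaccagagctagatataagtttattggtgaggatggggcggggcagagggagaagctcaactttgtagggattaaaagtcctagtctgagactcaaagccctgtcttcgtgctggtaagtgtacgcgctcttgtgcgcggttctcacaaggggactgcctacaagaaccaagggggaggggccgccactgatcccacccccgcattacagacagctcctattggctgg
Cox7b2: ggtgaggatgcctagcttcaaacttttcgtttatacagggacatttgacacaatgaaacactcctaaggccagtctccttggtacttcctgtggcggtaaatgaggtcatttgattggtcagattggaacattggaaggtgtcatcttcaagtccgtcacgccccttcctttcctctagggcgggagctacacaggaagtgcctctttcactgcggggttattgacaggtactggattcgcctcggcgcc
The capitals in *Cycs* are a cAMP response element (TGACGTCA), at position -169 from the start. Only exact matches were marked. The *Cycs* window also holds tcgcatgcgc and ttacgtca, which differ by a single base from the NRF1 and cAMP motifs searched. The E-box CACGTG, which BMAL1 and CLOCK bind, was found in none of the 3 windows, which says only that these letters are not there.

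The motifs were counted over 300 bases, from 250 before to 50 after each start, in the 50 members with an entry and in all 27025 genes of the table, which include every kind of gene. The motifs can overlap one another, and only exact matches were counted, so a gene not listed may hold a close variant. The E-box was in 4 members (8%, against 8.09% of all genes), which were *Atp5g1*, *Atp5g3*, *Atp5l* and *Uqcc3*. These 4 changed by -0.22, 0.03, 0.03 and -0.09. The NRF1 motif (GCGC, any base, then TGCGC) was in 13 members (26%, against 5.19%), among them *Sdha*, *Uqcrc1*, *Cox6a1* and *Atp5c1*. The ETS motif CCGGAAG, of the kind GABPA binds, was in 22 members (44%, against 9.93%), among them *Sdhb*, *Uqcrh*, *Cox6b1* and *Cox20*. NRF1 and GABPA are known regulators of nuclear respiratory genes. The cAMP response element TGACGTCA was in 2 members (4%, against 2.03%), *Cycs* and *Uqcrfs1*, and the YY1 motif AAGATGGCG in 3 (6%, against 1.64%). Of the 2 genes with the cAMP response element, *Cycs* fell and *Uqcrfs1*, at 0.05, did not pass. A part of the element in these changes was not tested. Members with no entry in the table were *Atp5a1*, *Atp5f1*, *Atp5s*, *Atp5sl*, *Cox17*, *Cox18*, *Cox4i1*, *Cox4i2*, *Cox6a2*, *Cox6c*, *Cox8c*, *Cyc1*, *Sdhc*, *Uqcrb*, *Uqcrc2* and *Uqcrq*.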

How the data were processed

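RNA was isolated with Trizol from WT and *Bmal1* KO ESCs and depleted of ribosomal RNA. Per the submitters' processing notes, the authors aligned reads with TopHat2 2.1.1 and Bowtie2 2.3.0 (GRCm38) and used Cufflinks 2.2.1 to estimate the deposited FPKM. Strand use in counting is not given in the sources used here. Depth is unknown, so precision rests on the spread between replicates.

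Feature starts were raised by 1. Log2(FPKM + 0.1) of features with a mean of at least 0.5 FPKM was fitted by genotype in limma 3.58.1 (R 4.3.3, empirical Bayes with a variance trend, two-sided, Benjamini-Hochberg over all tested features). Calls were made at an adjusted p under 0.05, and also with more than 2-fold change as in the study. The code was tested on simulated data. Promoters came from RefSeq and coordinates from GENCODE vM21. Summaries and figures used Python 3.11.15.

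Groups follow the labels. Members and gene lists were chosen with earlier results of these data known. Genes were named if they passed the test, were tissue forms with their partners, core subunits, or the extreme or most abundant member of a complex. Others are further examples. In all, 10 alternatives and each left-out library were planned, and 1 alternative was added after seeing the data.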

Additional observations from a re-analysis of the deposited data

How the results depend on the processing

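Over 15 alternatives no member was called at more than 2-fold. The count of members higher in KO (1) became 0 with no filter, 2 after quantile normalization, median-of-ratios scaling, scaling to the sum of features with a symbol, or leaving out features without a symbol (chosen after seeing the data), and 0 to 3 with a library left out. The count lower in KO (2) became 1 with no filter or no variance trend, 3 (with *Surf1*) without features that lack a symbol, and 1 to 2 with a library left out. The genes behind these counts also changed. With a minimum mean of 1 FPKM the member called higher was *Cox20*, and after quantile normalization they were *Cox20* and *Cox6b1*. *Cox7b2* was not called under either. The replicate numbers state no shared batch. Deviations of same-numbered libraries had a Pearson r of 0.07 and a Spearman rho of 0.39 over all features, and 0.19 and 0.44 over the members, across genes, which are not independent. With the replicate block, 7 members were higher and 7 lower, and 31.2% of all features were called. The members' median rose to 0.081 with quantile normalization and 0.079 with symbol-sum scaling (all features -0.01 and 0.05), and ran from -0.033 to 0.028 with a library left out. With symbol-sum scaling the medians of complexes II, III, IV and V were 0.11, 0.11, 0.0073 and 0.088. With quantile normalization those of IV and V were 0.039 and 0.11. With a library left out they ran from -0.052 to 0.058, -0.026 to 0.028, -0.080 to 0.0092 and -0.030 to 0.035. The cause was not tested.

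Members with a small change turned in sign. With quantile normalization these were *Atp5e* (0.14), *Atp5g2* (0.043), *Atp5k* (0.089), *Cox7c* (0.16), *Cox8a* (0.081), *Cyc1* (0.049) and *Uqcrq* (0.042). With symbol-sum scaling they were *Atp5e* (0.063), *Atp5k* (0.044), *Cox8a* (0.050), and *Cyc1* (0.020), and with median-of-ratios *Atp5e* (0.0084). The targeted gene *Arntl*, no member, also turned with symbol-sum scaling (0.017). With a library left out, *Atp5b* ran from -0.040 to 0.093, *Atp5d* from -0.0042 to 0.13, *Atp5e* from -0.088 to 0.068, *Atp5g2* from -0.25 to 0.078, *Atp5k* from -0.15 to 0.089, *Cox4i2* from -0.59 to 0.22, *Cox8a* from -0.16 to 0.11, *Cyc1* from -0.14 to 0.030, *Sdhb* from -0.034 to 0.12 and *Sdhd* from -0.12 to 0.13. Over 35 named members, 467 of 523 values kept direction and call, 9 lost a call, 20 gained one and 27 turned. With 2 libraries per group and unknown depth, changes of this size cannot be resolved.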
